A study of Mus musculus with 2 samples.

Results

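The genes described here are 53 named genes of the cell cycle and of DNA replication, out of 24377 genes with a count in either hepatic library. They were taken by name from a list that was chosen with earlier results of these data known. The list holds 10 regulators of G1 phase, 18 genes of S phase and replication, and 25 genes of G2 phase and mitosis. All 53 were found in the table. The study asked how inhibition of cathepsin C, the protease that activates the serine proteases of neutrophil granules, changes liver injury by acetaminophen (APAP). In the APAP/AZD7986 pool, mice had received AZD7986, an inhibitor of cathepsin C, at 5 mg/kg by gavage at -12, 0, 12 and 24 h, and APAP at 300 mg/kg intraperitoneally at 0 h. In the APAP/vehicle pool, mice had received the same APAP dose with 4 doses of vehicle. Mice of both pools were wild-type male C57BL/6J animals aged 9 to 11 weeks that had fasted for 10 h before APAP and were killed 30 h after it. RNA from 8 perfused livers per group was mixed at equal shares before a single library was made from each pool by MACE, a method that sequences the 3′ ends of transcripts, so differences between single mice were not recorded.

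Dividing cells pass a fixed order of steps. D-type cyclins with CDK4 and CDK6, followed by cyclin E with CDK2, drive passage through G1 by phosphorylating the retinoblastoma protein, which frees E2F factors to switch on replication genes. The MCM helicase is loaded onto replication origins with the help of CDC6 and CDT1, DNA is copied in S phase around the sliding clamp PCNA, and cyclin B with CDK1 then carries the cell into mitosis. Hepatocytes rest outside the cycle in the healthy liver and re-enter it after injury, and liver regeneration after APAP relies on such compensatory division.

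Depth was similar, with 6700838 counts in the APAP/AZD7986 pool and 7657855 counts in the APAP/vehicle pool. Counts were divided by size factors of 0.910 for the APAP/AZD7986 pool and 1.10 for the APAP/vehicle pool, and each ratio is the AZD7986 pool over the vehicle pool, with its exact (Clopper-Pearson) 95% interval. With 1 library per group no test between groups exists, and the intervals cover counting error only, not the spread between mice. A gene was called lower at a ratio of 0.5 or less with an interval below 1, and higher at a ratio of 2 or more with an interval above 1, provided that its summed count reached 20. Of the 13523 such genes, 2.88% were called lower and 1.83% higher, while 15.1% had an interval below 1 and 17.9% an interval above 1. Their median log2 ratio was -0.02. The tissue label matched its markers, since Alb, which encodes the plasma protein albumin, had 217749 counts in the AZD7986 pool and 267058 counts in the vehicle pool.

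Taken over all phases, cell cycle transcripts were a small part of both libraries and were less frequent in the AZD7986 pool. The 53 genes gave 2497 counts in the AZD7986 pool, which is 373 CPM (counts scaled to the library total), and 3633 counts in the vehicle pool, which is 474 CPM. The ratio of the sums was 0.830 (0.788 to 0.873). Of the 39 members that reached the minimum of 20 counts, 5 were called lower, which is 12.8%, and 1 was called higher. An interval below 1 was seen in 13 of the 39, or 33.3%, and an interval above 1 in 2. Over the 10766 genes in the members' range of summed counts, 21 to 674, the share called lower was 3.50% and the share with an interval below 1 was 14.3%. The median log2 ratio was -0.31 over the 39 members and -0.07 over those 10766 genes. Of the phases, G1 regulators had the lowest ratio of sums and mitotic genes the ratio closest to 1. In a bulk library, fewer cells in the cycle and less RNA per cycling cell cannot be told apart.

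**Figure D1:**
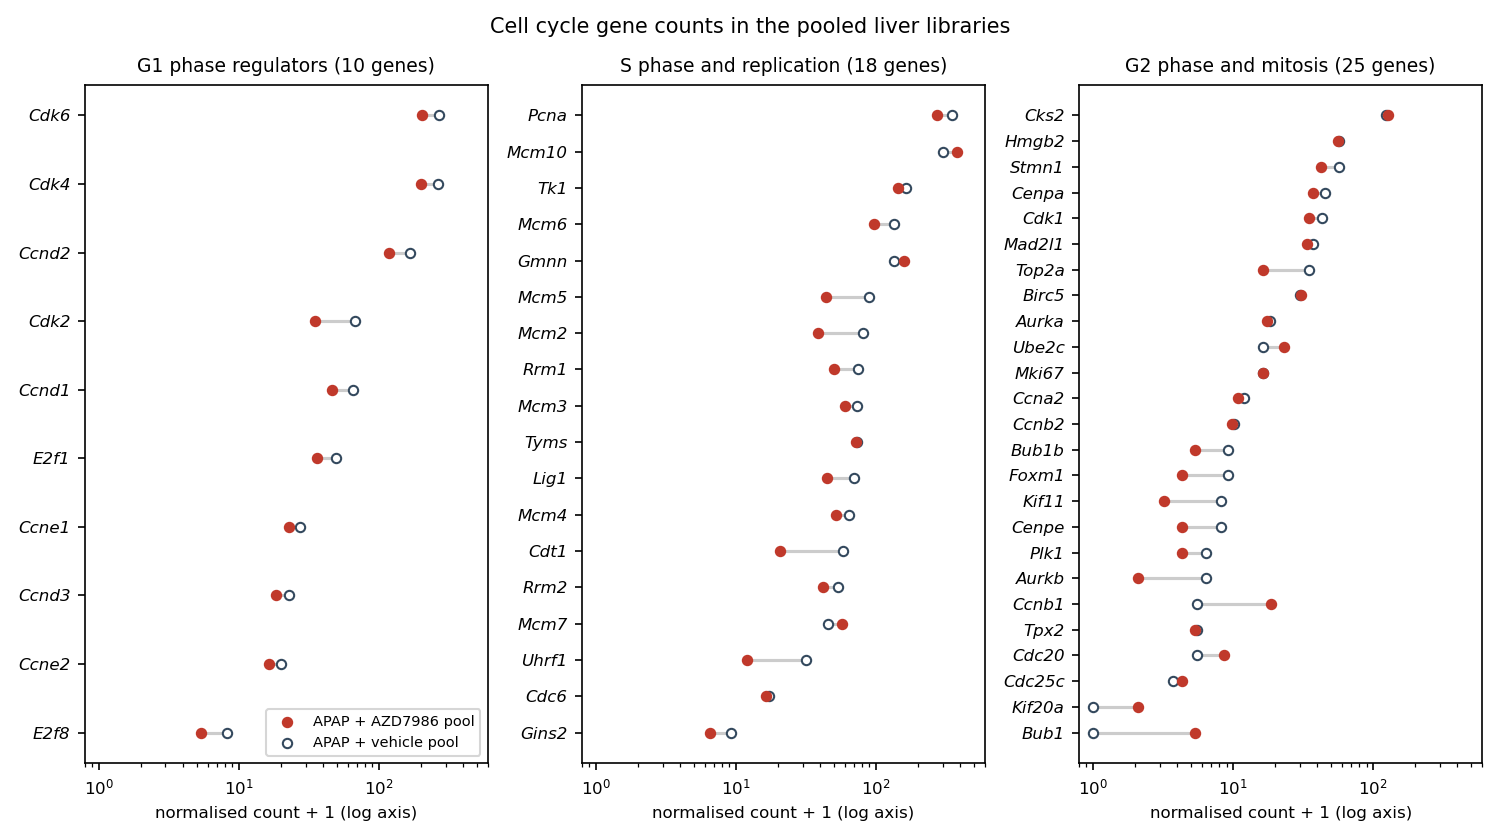
Normalised counts, plus 1 on a log axis, of the 53 members in the APAP/AZD7986 pool (filled points) and the APAP/vehicle pool (open points), by phase, with 1 library per pool and hence no error bar. All 10 G1 regulators sit lower in the AZD7986 pool, whereas Mcm10 (345 counts in the AZD7986 pool, 329 counts in the vehicle pool) and Ccnb1 (16 counts in the AZD7986 pool, 5 counts in the vehicle pool) sit higher.

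The promoters show what the phases share apart from their names. RefSeq promoter sequences (GRCm38.p6), which run from 250 bases before to 50 bases after the transcription start, were found for 40 of the 53 members and are set against all 27025 genes with such a sequence. E2F factors bind promoters of replication genes, and 4 spellings of their site were searched on both strands, TTTCCCGC, TTTGGCGC, TTTCGCGC and TTTGCCGC. The cell cycle genes homology region (CHR), an element of mitotic promoters that is bound by the MuvB complexes, was searched on both strands as TTTGAA. A variant of it with a CG pair in the middle, TTCGAA, was searched in the same way. The box bound by NF-Y was searched as CCAAT, again on both strands, and the words may overlap each other in a promoter. All windows are printed 5′ to 3′ along the strand of the gene, so a word on the other strand appears as its reverse complement.

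An E2F word was found in 8 of 15 promoters of S phase and replication genes (53.3%), in 1 of 7 promoters of G1 regulators, in 1 of 18 promoters of mitotic genes and in 2.61% of all genes. The 8 genes were Mcm3, Mcm5, Mcm6, Mcm7, Cdc6, Cdt1, Lig1 and Uhrf1. The windows below show an E2F word in capitals in 3 members with an interval below 1 and in Cdc6, whose counts were close in both pools. In Mcm5 and Mcm6 a second E2F word overlaps the capitals on the other strand, and the Uhrf1 window lies before its second annotated start.
Mcm5 promoter, chr8:75109334-75109385, plus strand: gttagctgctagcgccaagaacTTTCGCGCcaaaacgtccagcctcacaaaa
Mcm6 promoter, chr1:128359786-128359837, minus strand: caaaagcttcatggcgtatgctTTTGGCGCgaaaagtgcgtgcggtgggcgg
Uhrf1 promoter, chr17:56304106-56304157, plus strand: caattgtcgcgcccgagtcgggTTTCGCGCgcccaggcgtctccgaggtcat
Cdc6 promoter, chr11:98907991-98908042, plus strand: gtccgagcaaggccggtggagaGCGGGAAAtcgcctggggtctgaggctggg

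A CHR word was found in 13 of 18 promoters of mitotic genes (72.2%), in 2 of 15 of S phase and replication genes, in 1 of 7 of G1 regulators and in 21.7% of all genes. CCAAT was found in 16 of 18 mitotic promoters (88.9%) and in 41.1% of all genes. The next windows show a CHR word in capitals in Top2a, the mitotic gene called lower, in Cdk1 and Mki67, and in Mcm2. Mcm2 is the MCM gene with the lowest ratio, and no E2F word was found in its promoter. The promoters of Top2a, Cdk1 and Mki67 hold further CHR words, and that of Mki67 lies in its window in small letters.
Top2a promoter, chr11:99024190-99024234, minus strand: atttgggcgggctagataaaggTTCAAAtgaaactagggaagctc
Cdk1 promoter, chr10:69352956-69353005, minus strand: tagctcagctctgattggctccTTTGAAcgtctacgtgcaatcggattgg
Mki67 promoter, chr7:135716450-135716499, minus strand: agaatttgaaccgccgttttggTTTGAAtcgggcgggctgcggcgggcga
Mcm2 promoter, chr6:88898823-88898872, minus strand: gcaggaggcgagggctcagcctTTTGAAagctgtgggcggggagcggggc

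The last windows show a CCAAT box in capitals in both members with an interval above 1. No CHR word and no E2F word was found in either promoter, which says only that these letters are missing from the 300 bases searched.
Ccnb1 promoter, chr13:100786559-100786607, minus strand: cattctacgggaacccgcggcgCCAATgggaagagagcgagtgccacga
Mcm10 promoter, chr2:5012863-5012911, minus strand: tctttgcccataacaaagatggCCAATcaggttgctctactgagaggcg

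Among counted members with a promoter sequence, an E2F word was present in 6 of the 12 with an interval below 1 and in 4 of the other 20. These groups differ in phase, since intervals below 1 were found for 8 S phase members and 1 mitotic member. The contrast therefore cannot be told apart from phase. Within S phase, Mcm5, Mcm6, Cdt1, Lig1 and Uhrf1 had an E2F word and an interval below 1. Mcm3, Mcm7 and Cdc6 had an E2F word and an interval that includes 1. Of the S phase members with no E2F word found, Mcm2, Pcna and Rrm1 had an interval below 1. The intervals of Rrm2, Tk1 and Tyms included 1, and that of Mcm10 lay above 1. A match is a description of letters and was not tested as a binding site.

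**Figure D2:**
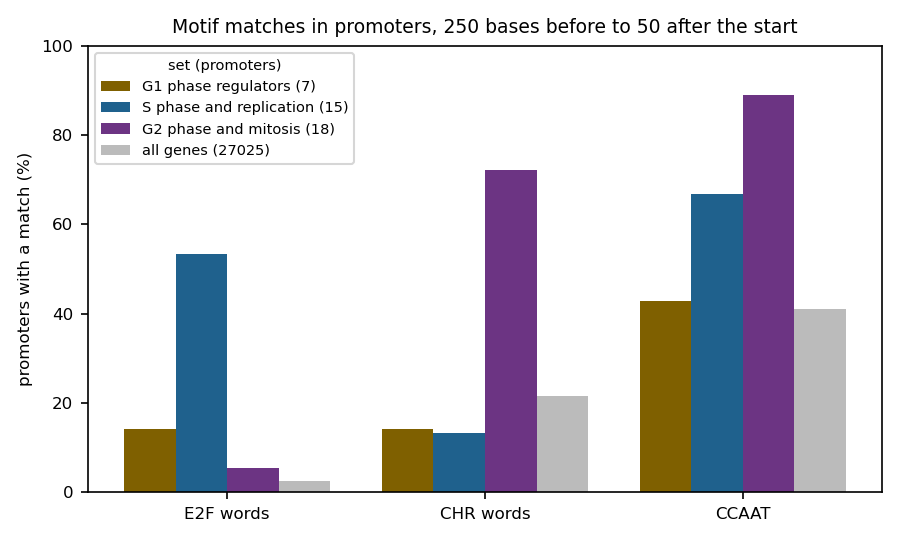
Share of promoters, in percent, with at least 1 match of each motif for the G1, S phase and mitotic members and for all 27025 genes, the bars starting at 0. E2F words stand out in replication genes (53.3% against 2.61% of all genes) and CHR words in mitotic genes (72.2% against 21.7%).

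As a group, G1 regulators were less frequent in the AZD7986 pool. The 10 genes gave 629 counts in the AZD7986 pool and 1047 counts in the vehicle pool, a ratio of 0.725 (0.656 to 0.801). All 9 counted members had a ratio under 1, from 0.513 to 0.832, with a median log2 ratio of -0.42. The intervals of Ccnd2, Cdk2, Cdk4 and Cdk6 lay below 1, which is 44.4% of the 9 beside 15.1% of all genes. Ccnd2 and Cdk4 have another gene at their 3′ end, where reads could be shared. Without such members, 2 of the 4 counted regulators left had an interval below 1. None of the 9 reached the threshold for a call in either direction.

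The D-type cyclins, which are the G1 partners of CDK4 and CDK6, had 163 counts in the AZD7986 pool and 278 counts in the vehicle pool, a ratio of 0.708 (0.580 to 0.862). Ccnd2 (cyclin D2, chr6:127125162-127152193) was counted 106 times in the AZD7986 pool and 183 times in the vehicle pool, a ratio of 0.699 (0.545 to 0.893). Ccnd1, the cyclin D that hepatocytes induce on entry into the cycle, had 41 counts in the AZD7986 pool and 71 counts in the vehicle pool, a ratio of 0.697 (0.463 to 1.04). Both cyclins thus had nearly the same ratio, but the interval of Ccnd1 reached 1. Ccnd3 had 16 counts in the AZD7986 pool and 24 counts in the vehicle pool, a ratio of 0.805 (0.399 to 1.58).

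The kinases that these cyclins activate were the most counted members of G1. Cdk6 (chr5:3341485-3531008) had 185 counts in the AZD7986 pool and 295 counts in the vehicle pool, a ratio of 0.757 (0.626 to 0.913). Cdk4 had 180 counts in the AZD7986 pool and 290 counts in the vehicle pool, a ratio of 0.749 (0.618 to 0.905). The ratios of this kinase pair were alike, with intervals that overlap over almost their whole length. Cdk2 (chr10:128697939-128705031), the partner of cyclin E, had 31 counts in the AZD7986 pool and 73 counts in the vehicle pool. Its ratio of 0.513 (0.325 to 0.790) was the lowest of the counted G1 regulators and lay just outside the threshold for a lower call.

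Cyclin E and the E2F factors act at the end of G1, and their counts were too low to show a difference of this size. Ccne1 had 20 counts in the AZD7986 pool and 29 counts in the vehicle pool, a ratio of 0.832 (0.446 to 1.52). Ccne2 had 14 counts in the AZD7986 pool and 21 counts in the vehicle pool, a ratio of 0.805 (0.378 to 1.66). E2f1, an activator of replication genes, had 32 counts in the AZD7986 pool and 53 counts in the vehicle pool, a ratio of 0.729 (0.455 to 1.15). E2f8, a repressor that E2F factors induce, stayed under the minimum with 4 counts in the AZD7986 pool and 8 counts in the vehicle pool. At these depths every interval reached from well under 1 to above it.

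S phase and replication genes held the clearest single differences. The 18 genes gave 1412 counts in the AZD7986 pool and 1984 counts in the vehicle pool, a ratio of 0.859 (0.802 to 0.920). Mcm2, Mcm5, Cdt1 and Uhrf1 were called lower, which is 23.5% of the 17 counted members beside 2.88% of all genes. Intervals below 1 were also found for Mcm6, Pcna, Rrm1 and Lig1, so that 8 of 17 (47.1%) lay below 1, and that of Mcm10 lay above 1. The median log2 ratio was -0.34. Mcm10 alone carried 345 of the 1412 counts of the AZD7986 pool, and without it the ratio of the sums was 0.778.

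The MCM2-7 proteins form the ring-shaped replicative helicase. Together the 6 genes had 312 counts in the AZD7986 pool and 531 counts in the vehicle pool, a ratio of 0.709 (0.615 to 0.817). Mcm2 (chr6:88883474-88898780) had 34 counts in the AZD7986 pool and 88 counts in the vehicle pool, a ratio of 0.466 (0.304 to 0.700). Mcm5 (chr8:75109569-75128439) had 39 counts in the AZD7986 pool and 97 counts in the vehicle pool, a ratio of 0.485 (0.326 to 0.710). These subunits lay just inside the threshold for a lower call. Mcm6 (chr1:128331590-128359664) had 88 counts in the AZD7986 pool and 148 counts in the vehicle pool, a ratio of 0.718 (0.545 to 0.941).

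The subunits of the ring did not all share this direction. Mcm3 had 54 counts in the AZD7986 pool and 80 counts in the vehicle pool, and Mcm4 had 46 counts in the AZD7986 pool and 69 counts in the vehicle pool, both with intervals that include 1. Mcm7 was counted 51 times in the AZD7986 pool and 49 times in the vehicle pool, a ratio of 1.26 (0.832 to 1.90). The 3′ end of Mcm7 lies beside that of Cops6 on the other strand, and the strand setting of the counting was not given, so the source of its counts is uncertain.

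Values differed among the genes of origin licensing. Cdt1 (chr8:122568015-122573554), which loads the helicase together with CDC6, had 18 counts in the AZD7986 pool and 63 counts in the vehicle pool. Its ratio of 0.345 (0.192 to 0.590) was the lowest of all 39 counted members, although a predicted gene annotated across the same stretch (Gm20388) could share its reads. Gmnn encodes geminin, the inhibitor of CDT1, and had 143 counts in the AZD7986 pool and 147 counts in the vehicle pool, a ratio of 1.17 (0.926 to 1.49). The intervals of Cdt1 and Gmnn do not overlap. Cdc6 had 14 counts in the AZD7986 pool and 18 counts in the vehicle pool, and Gins2, a subunit of the GINS complex of the active helicase, had 5 counts in the AZD7986 pool and 9 counts in the vehicle pool.

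Mcm10 (chr2:4989714-5012791), which joins the helicase with DNA polymerase α when origins fire, was the most counted of all 53 members. It had 345 counts in the AZD7986 pool and 329 counts in the vehicle pool, a ratio of 1.27 (1.09 to 1.48). Mcm10 thus went the other way from Mcm2, Mcm5 and Mcm6, with an interval that overlaps none of theirs. Without any scaling of the counts, its interval included 1.

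Fork proteins were lower by a smaller margin. Pcna had 249 counts in the AZD7986 pool and 381 counts in the vehicle pool, a ratio of 0.789 (0.670 to 0.928). Lig1, the ligase that joins Okazaki fragments, had 40 counts in the AZD7986 pool and 76 counts in the vehicle pool, a ratio of 0.635 (0.422 to 0.943). Uhrf1 (chr17:56303321-56323486), which recruits the maintenance methyltransferase to newly copied DNA, had 10 counts in the AZD7986 pool and 34 counts in the vehicle pool, a ratio of 0.355 (0.156 to 0.735). Of the fork and chromatin genes, Uhrf1 thus had the lowest ratio and the widest interval.

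Enzymes of nucleotide supply gave 276 counts in the AZD7986 pool and 396 counts in the vehicle pool, a ratio of 0.841 (0.719 to 0.983). Rrm1, the large subunit of ribonucleotide reductase, had 45 counts in the AZD7986 pool and 81 counts in the vehicle pool, a ratio of 0.671 (0.455 to 0.977). The small subunit Rrm2 had 37 counts in the AZD7986 pool and 58 counts in the vehicle pool, with an interval that includes 1. The salvage enzyme thymidine kinase, Tk1, had 129 counts in the AZD7986 pool and 178 counts in the vehicle pool, a ratio of 0.875 (0.692 to 1.10). Thymidylate synthase, Tyms, had 65 counts in the AZD7986 pool and 79 counts in the vehicle pool, a ratio of 0.993 (0.704 to 1.40). Within nucleotide supply only the interval of Rrm1 lay below 1.

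**Figure D3:**
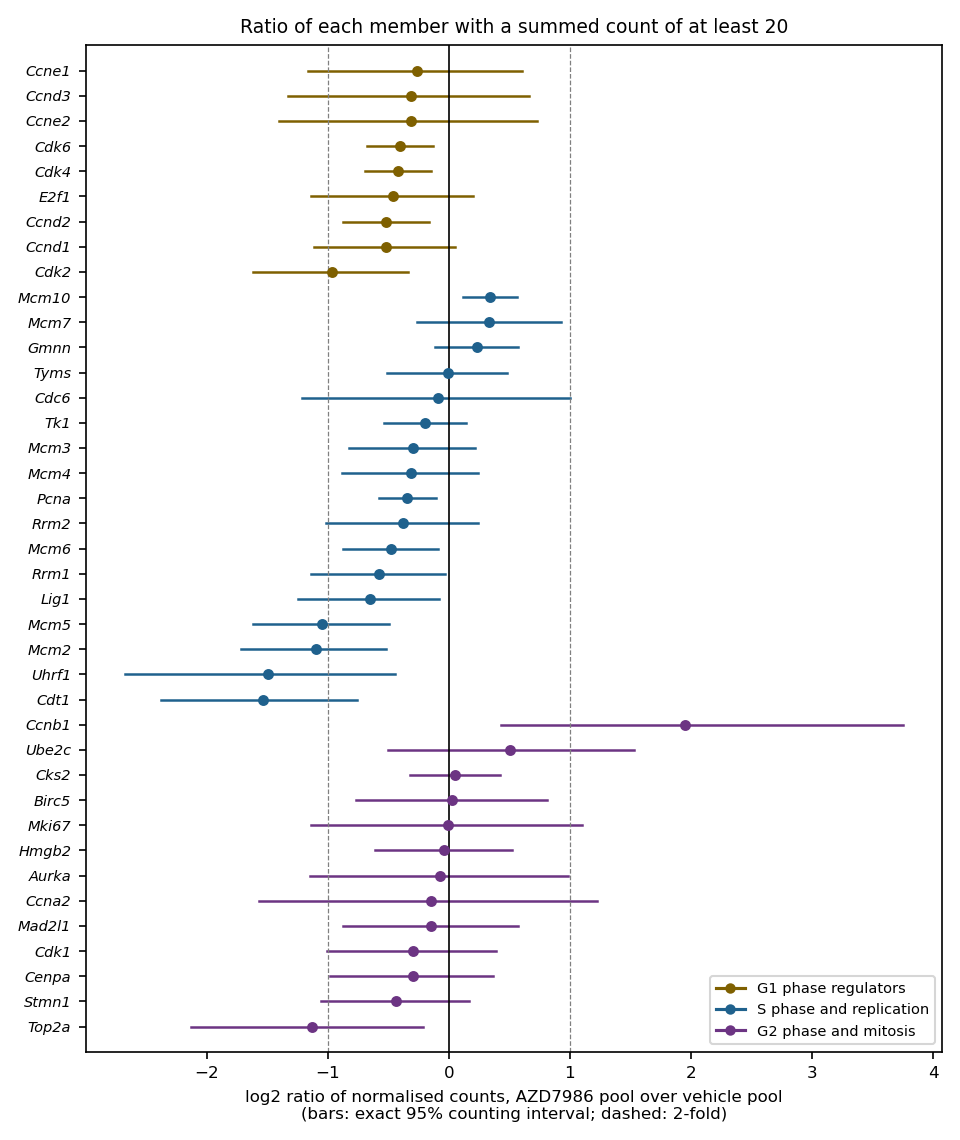
Log2 ratio of the AZD7986 pool over the vehicle pool for the 39 members that reached 20 counts, coloured by phase, with exact 95% counting intervals as bars and dashed lines at a change of 2-fold. All 9 G1 regulators sit left of 0, replication genes run from -1.54 (Cdt1) to 0.34 (Mcm10), and 11 of the 13 mitotic genes span 0.

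With size factors, mitotic genes were close to even between the pools. The 25 genes gave 456 counts in the AZD7986 pool and 602 counts in the vehicle pool, a ratio of 0.914 (0.808 to 1.03), and the median log2 ratio of the 13 counted members was -0.07. Top2a was called lower and Ccnb1 higher, and the other 11 counted members had intervals that include 1. Each call is 1 of 13 counted members, or 7.69%, beside 2.88% called lower and 1.83% called higher over all genes. The share with an interval below 1 was also 7.69%, from Top2a alone, beside 15.1% of all genes.

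Mitotic cyclins and CDK1 set entry into mitosis. Ccnb1 (cyclin B1, chr13:100778650-100786570) had 16 counts in the AZD7986 pool and 5 counts in the vehicle pool, a ratio of 3.86 (1.35 to 13.5). It was the single member called higher, on a summed count of 21. Ccnb2 (cyclin B2), by contrast, had 8 counts in the AZD7986 pool and 10 counts in the vehicle pool, and Ccna2 (cyclin A2) had 9 counts in the AZD7986 pool and 12 counts in the vehicle pool. Cdk1 (chr10:69335146-69352938), the kinase of these cyclins, had 31 counts in the AZD7986 pool and 46 counts in the vehicle pool, a ratio of 0.813 (0.499 to 1.31). Cks2, a small subunit of the CDK complex and the most counted mitotic member, had 116 counts in the AZD7986 pool and 135 counts in the vehicle pool, a ratio of 1.04 (0.802 to 1.34). The higher count of Ccnb1 was not seen for its partner kinase or for the other mitotic cyclins.

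Among chromosome proteins, Top2a (chr11:98992943-99024189), the topoisomerase that untangles sister chromatids, had 14 counts in the AZD7986 pool and 37 counts in the vehicle pool, a ratio of 0.457 (0.228 to 0.865). Mki67, which encodes the proliferation marker Ki-67, had 14 counts in the AZD7986 pool and 17 counts in the vehicle pool. Cenpa, the histone H3 variant of centromeres, had 33 counts in the AZD7986 pool and 49 counts in the vehicle pool, a ratio of 0.813 (0.506 to 1.29). Top2a and Mki67 are both used to mark dividing cells, and only the interval of Top2a lay below 1. Hmgb2, a chromatin protein, had 50 counts in the AZD7986 pool and 62 counts in the vehicle pool, a ratio of 0.973 (0.657 to 1.44).

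Genes of the spindle and its checkpoint were sparse. Mad2l1, a checkpoint protein, had 30 counts in the AZD7986 pool and 40 counts in the vehicle pool, a ratio of 0.905 (0.544 to 1.49). Stmn1, a microtubule destabiliser, had 38 counts in the AZD7986 pool and 62 counts in the vehicle pool, a ratio of 0.740 (0.481 to 1.13). Birc5 (survivin) had 27 counts in the AZD7986 pool and 32 counts in the vehicle pool. None of these intervals left out 1, and the same held for the kinase Aurka with 15 counts in the AZD7986 pool and 19 counts in the vehicle pool. Ube2c, the ubiquitin-conjugating enzyme of the anaphase-promoting complex, had 20 counts in the AZD7986 pool and 17 counts in the vehicle pool, and Tnnc2 is annotated at its 3′ end.

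The remaining 12 mitotic members had summed counts from 1 to 18 and gave 43 counts in the AZD7986 pool and 69 counts in the vehicle pool. Besides Ccnb2 they were the kinases Plk1, Aurkb, Bub1 and Bub1b, the phosphatase Cdc25c, the anaphase activator Cdc20, the transcription factor Foxm1, the motors Cenpe, Kif11 and Kif20a, and the spindle factor Tpx2. The count was higher in the vehicle pool for 8 of the 12. Foxm1 had 3 counts in the AZD7986 pool and 9 counts in the vehicle pool, Kif11 had 2 counts in the AZD7986 pool and 8 counts in the vehicle pool, and Aurkb had 1 count in the AZD7986 pool and 6 counts in the vehicle pool. Bub1 was counted 4 times and Kif20a 1 time in the AZD7986 pool, and both were at 0 in the vehicle pool, where up to 3 counts remain possible. No difference was detectable for these genes at this depth.

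Another gene lies at the 3′ end of 14 of the 53 members, where reads could be shared. Without these 14, the ratio of the sums was 0.717 (0.615 to 0.835) for G1 regulators, 0.866 (0.804 to 0.933) for S phase and replication and 0.898 (0.789 to 1.02) for mitosis. The order of the phases was the same.

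Further genes of the same pathway were read from lists chosen by name. The lower values of the replication members were not seen across other replication genes, which gave 2563 counts in the AZD7986 pool and 3007 counts in the vehicle pool, a ratio of 1.03 (0.976 to 1.08), with a median log2 ratio of 0.02 over 40 counted genes. Of the 40, 2 were called lower, Pola1 and Pole2, which is 5% beside the 2.88% of all genes, and 4 intervals lay below 1, against 15.1% of all genes. Pole2, a subunit of DNA polymerase ε, had 10 counts in the AZD7986 pool and 29 counts in the vehicle pool, a ratio of 0.416 (0.181 to 0.879). Pola1, the catalytic subunit of DNA polymerase α, had 18 counts in the AZD7986 pool and 45 counts in the vehicle pool, a ratio of 0.483 (0.263 to 0.851). Dnmt1, the methyltransferase that UHRF1 recruits, had 41 counts in the AZD7986 pool and 81 counts in the vehicle pool, a ratio of 0.611 (0.409 to 0.900). Among the most counted genes of this list were the clamp loader subunit Rfc2, with 199 counts in the AZD7986 pool and 231 counts in the vehicle pool, and the dUTPase gene Dut, with 118 counts in the AZD7986 pool and 121 counts in the vehicle pool.

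Other mitosis genes gave 1509 counts in the AZD7986 pool and 1875 counts in the vehicle pool, a ratio of 0.971 (0.907 to 1.04), with a median log2 ratio of -0.20 over 21 counted genes of 59. Of these 21, 1 was called lower and 2 higher, beside 2.88% lower and 1.83% higher over all genes. Spc24, a kinetochore subunit, had 156 counts in the AZD7986 pool and 74 counts in the vehicle pool, a ratio of 2.54 (1.92 to 3.40). Cenpm, a centromere protein, had 41 counts in the AZD7986 pool and 17 counts in the vehicle pool, a ratio of 2.91 (1.62 to 5.46). Ncapd2, a condensin subunit, had 7 counts in the AZD7986 pool and 22 counts in the vehicle pool, a ratio of 0.384 (0.139 to 0.931). The called genes thus lay on both sides of 1. Bub3, a checkpoint protein, had 134 counts in the AZD7986 pool and 225 counts in the vehicle pool, a ratio of 0.719 (0.576 to 0.894). The most counted gene of the list, the kinetochore gene Zwint, had a ratio of 0.963 (0.840 to 1.10), and securin, Pttg1, had a ratio of 0.970 (0.787 to 1.19).

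Brakes of the cycle were slightly less frequent in the AZD7986 pool as well. The list gave 2438 counts in the AZD7986 pool and 3263 counts in the vehicle pool, a ratio of 0.902 (0.855 to 0.951), with a median log2 ratio of -0.20 over 20 counted genes. Intervals lay below 1 for 5 of the 20 and above 1 for 2, beside 15.1% below and 17.9% above over all genes. Rb1, which encodes the retinoblastoma protein, was called lower with 18 counts in the AZD7986 pool and 51 counts in the vehicle pool, a ratio of 0.426 (0.234 to 0.742). Gadd45g, a stress-induced growth arrest gene, had 142 counts in the AZD7986 pool and 338 counts in the vehicle pool, a ratio of 0.507 (0.414 to 0.619). Cdkn1a, which encodes the CDK inhibitor p21, had 128 counts in the AZD7986 pool and 226 counts in the vehicle pool, a ratio of 0.684 (0.546 to 0.853). Cdkn2d, the CDK4 inhibitor p19, went the other way with 45 counts in the AZD7986 pool and 30 counts in the vehicle pool, a ratio of 1.81 (1.12 to 2.98). The antiproliferative gene Tob1, the most counted brake, had 760 counts in the AZD7986 pool and 777 counts in the vehicle pool, a ratio of 1.18 (1.07 to 1.31). Activators of G1 as a group and the brakes Rb1, Gadd45g and Cdkn1a were thus less frequent in the AZD7986 pool, whereas Cdkn2d and Tob1 were more frequent. Ccng1, with a ratio of 1.04 (0.891 to 1.22), and Btg1, with a ratio of 0.899 (0.765 to 1.06), had intervals that include 1.

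Marker transcripts of other cells did not share 1 direction, and those of neutrophils and monocytes were less frequent in the AZD7986 pool. Hepatocyte markers had a ratio of sums of 1.01, with 474999 counts in the AZD7986 pool and 569556 counts in the vehicle pool. Their single genes were not even, with ratios from 0.801 to 1.38, and intervals above 1 for 5 of the 8 and below 1 for 2. Neutrophil markers gave 319 counts in the AZD7986 pool and 1011 counts in the vehicle pool, a ratio of 0.381 (0.335 to 0.432), with all 7 counted genes under 1, S100a8 the most counted at 145 counts in the AZD7986 pool and 472 counts in the vehicle pool, Elane at 0 in the AZD7986 pool and Ly6g at 0 in the vehicle pool. Markers of monocytes and infiltrating macrophages, led by Lyz2, had a ratio of 0.767 (0.724 to 0.813), with 9 of 10 counted genes under 1. Those of Kupffer cells, led by Cd5l, had a ratio of 1.05, with 1 of 8 counted genes under 1. Those of erythroid precursors, led by the globin Hbb-bs, had a ratio of 1.01 (0.988 to 1.04), with 2 of the 4 counted globin genes under 1 and 2 above it, each with an interval that leaves out 1.

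Endothelial, stellate and biliary cells can also divide during liver repair. The ratios of their marker sums were below 1, as were most but not all of their single markers. Endothelial markers, led by Eng, had a ratio of 0.863 (0.805 to 0.925), with 6 of 9 genes under 1, and intervals above 1 for Clec4g and Oit3. Stellate cell markers, led by Dcn, had a ratio of 0.828 (0.783 to 0.875), with 6 of 9 genes under 1, while Colec11 was called higher with 193 counts in the AZD7986 pool and 116 counts in the vehicle pool. Cholangiocyte markers gave 102 counts in the AZD7986 pool and 268 counts in the vehicle pool, a ratio of 0.459 (0.362 to 0.579), with 3 of 4 counted genes under 1. Most of these counts came from Sox9, with 74 counts in the AZD7986 pool and 211 counts in the vehicle pool. T and NK cell markers, led by Cd3d, totalled 17 counts in each pool with Cd3e and Ncr1 at 0 in the AZD7986 pool, and B cell markers, led by Cd79b, totalled 21 counts in the AZD7986 pool and 20 counts in the vehicle pool with Cd79a at 0 in the vehicle pool. The part of these cells in the counts of the cell cycle genes was not tested.

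**Figure D4:**
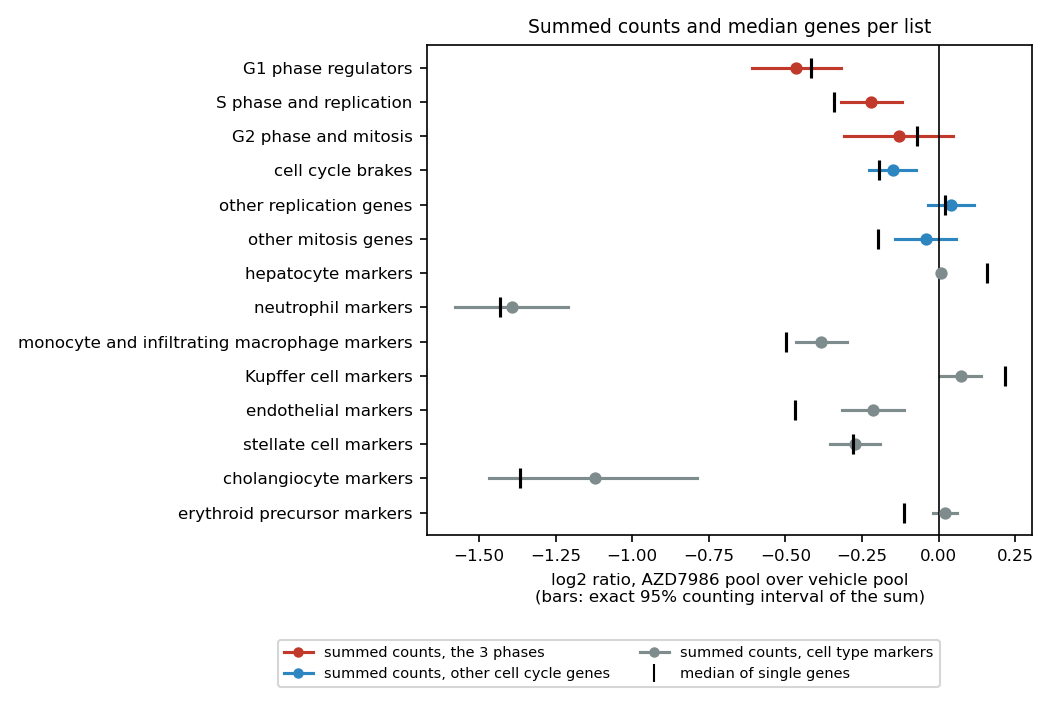
Log2 ratio of summed counts, AZD7986 pool over vehicle pool, for the 3 phases (red), the other cell cycle genes (blue) and the cell type markers (grey), with exact 95% counting intervals as bars and a black tick at the median gene. The ratio of sums was 0.725 for G1 regulators and 1.03 for other replication genes, against 1.01 for hepatocyte markers and 0.381 for neutrophil markers; T, NK and B cell markers, with 1 counted gene at most, are not drawn.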

How the data were processed

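The sample titles gave the groups, and labels and methods gave doses and times. The treatment text of both labels is identical, and they name MACE-kit v.2 where the methods have Rapid MACE-Seq for liver. The authors removed duplicate reads by unique molecular identifiers, trimmed with cutadapt, clipped poly(A) tails, mapped to mm10 and deposited raw counts per gene from HTSeq. DESeq2 is also named in the submitters' processing notes. Not given in the sources used here are the aligner, annotation release, strand setting and tool versions. The table holds 10 further columns of per-sample values, which were not used, nor were the authors' own comparisons.

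DESeq2 1.42.0 (R 4.3.3) gave the size factors from these counts, and ratios were calculated with exact binomial intervals in Python 3.11.15 (numpy 2.4.6, scipy 1.17.1, pandas 2.3.3, figures with matplotlib 3.10.9). The interval calculation was tested on simulated counts that held counting error only. With no spread between mice or libraries in them, that test could not show how the intervals do in its presence. In the counts over all genes, a count of 0 in a pool was set to 1, as the study did. Entries without a symbol, 3.71% of counts in the AZD7986 pool and 3.70% in the vehicle pool, were kept. Gene coordinates are those of GENCODE M21 (mm10), promoters those of RefSeq (GRCm38.p6). Members and lists were chosen with earlier results of these data known. Named were all members, by count or range, with ratios for the 6 most counted and the 6 with the largest change in phases of more than 12 counted genes, and the 3 most counted and 3 most changed genes of each other pathway list. Cdkn1a, Clec4g, Oit3, Colec11 and the ratio of Mcm7 were added after their values had been seen. Lin54, Chaf1a and Mpo were not analysed here. Some genes that the naming rule picked are not reported here. Alternatives were the TMM factors of edgeR 4.0.16, library totals, unscaled counts, other minimum counts, a wider interval that leaves out 0.1% and leaving out the most counted member.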

Additional observations from a re-analysis of the deposited data

How the results depend on the processing

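No paired analysis was possible because each group has 1 library. With TMM factors, no value of the 3 phases left the range set by counting error. With library totals, Cdk2 was called lower, so that G1 regulators had 1 lower call in place of 0, and without scaling also 1. The ratio of sums with library totals was 0.687 for G1 regulators, 0.813 for S phase and replication and 0.866 for mitosis. Without scaling, which lowers every log2 ratio by 0.27, the ratio of sums was 0.601 for G1 regulators, 0.712 for S phase and replication and 0.758 for mitosis, and the median log2 ratios were -0.69, -0.61 and -0.34. The log2 ratio of Mcm10 was then 0.07, against 0.34 with size factors. Without Mcm10 the S phase ratio was 0.778. With a wider interval that leaves out 0.1%, mitosis had 0 lower and 0 higher calls, and with a minimum summed count of 50 it had 0 higher calls, because Ccnb1 has 21. In both settings S phase and replication had 3 lower calls in place of 4, as Uhrf1 was lost, and without members with another gene at their 3′ end also 3, as Cdt1 was left out. All 13 members with an interval below 1 kept it under the 3 other scalings, but these could not have moved them to 1. Library totals and unscaled counts shift every log2 ratio by -0.08 and -0.27, and TMM factors by only 0.0017. The share of all genes with an interval below 1 also rose, from 15.1% to 20.4% with library totals and 36.3% without scaling. Leaving out members with another gene at their 3′ end was chosen after seeing the data. Depth limits the mitotic genes most, since 12 of 25 stayed under the minimum.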
